A study of Arabidopsis thaliana with 4 samples.

Results

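The 42 genes described here build or control the secondary wall of xylem cells, and were taken by locus identifier from a list of named genes, out of 32833 genes in the count table. By role, 7 act in cellulose deposition, 6 in xylan synthesis, 19 in transcriptional control, 3 in lignin polymerisation, 4 in the death and clearing of the cell, 2 encode fasciclin-like arabinogalactan proteins, and 1 makes thermospermine. All 42 identifiers were found in the table, and 40 of the genes had at least 1 read.

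Water-conducting xylem vessels lay down a thick wall of cellulose and xylan inside the primary wall, harden it with lignin, and then die and empty themselves. In Arabidopsis the VND family of NAC transcription factors switches this programme on, largely through the MYB factors MYB46 and MYB83, which in turn act on further MYB factors, wall enzymes and laccases. Callus on auxin-rich medium is known to grow along a route that resembles the start of a lateral root, and so can hold cells related to those of the root vasculature.

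RNA was sequenced from callus of Arabidopsis thaliana, formed on hypocotyl pieces of about 1 cm that had been cut from seedlings grown for 9 days in the dark. The wox5-1 wox7-1 double mutant, which carries both mutant alleles of the related homeobox genes WOX5 and WOX7, was compared with the wild type Col-0. Both were kept for 5 to 6 days (stage label 6 days) at 22 °C in continuous light on callus induction medium with 2% sucrose, 11 µM of 2,4-D (an auxin) and 0.2 µM of kinetin (a cytokinin). RNA came from about 100 calli, with 2 libraries per genotype. Nothing in the labels tells whether these are separate cultures. The p-values therefore measure the spread between these libraries, which may be technical. The labels call the tissue hypocotyl-derived callus and do not say whether vascular tissue of the explant was part of it.

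The wox5-1 wox7-1 libraries held 35078420 and 40008661 reads, and the wild type libraries held 30041268 and 35975440. WOX5, a regulator of the root stem cell niche, had 0.255 and 0.846 CPM (the read count scaled to library size) in wox5-1 wox7-1 callus, against 144 and 146 CPM in the wild type. WOX7 had 22.4 and 22.2 CPM in the mutant against 14.8 and 13.1 CPM in the wild type (log2 fold change 0.68, adjusted p = 0.0335, edgeR, a call lost with either mutant library left out), and this gene-wide level is no check of the wox7-1 allele. Paired values are given here and throughout in the order replicate 1, replicate 2. A fold change is the log2 ratio of wox5-1 wox7-1 over wild type from edgeR's quasi-likelihood test, with its standard error (SE). A gene is said to have risen or fallen when its p, adjusted by the Benjamini-Hochberg method over all 18716 tested genes, was below 0.05. By this rule 2223 genes changed, which is 11.9% of those tested, with 6.06% higher and 5.81% lower in the mutant. A count of 3 reads corresponds to 0.077 to 0.0986 CPM in a library.

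The tracheary element-regulating element (TERE) is a short motif first described upstream of genes used in vessel cells, including genes of the kind listed here. It is shown because it ties several of the described genes to a written sequence, not as evidence of binding. Its letters (CTT, any base, AAAGC, any base, A) were searched on both strands in the 250 bases before the annotated start of each gene in the TAIR10.1 RefSeq annotation. A match was found for 5 of the 42 genes, against 101 of all 27443 promoters of the same length (0.368%). The windows below carry the motif in capitals with 40 bases on either side, read 5′ to 3′ on the plus strand, which is the strand of all 3 genes.
XCP1, chr4:16810367-16810457, motif 75 to 65 bases before the start: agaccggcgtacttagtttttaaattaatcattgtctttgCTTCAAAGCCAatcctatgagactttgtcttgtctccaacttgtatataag
MC9, chr5:1153637-1153727, motif 63 to 53 bases before the start: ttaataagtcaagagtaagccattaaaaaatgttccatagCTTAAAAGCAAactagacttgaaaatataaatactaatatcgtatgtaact
LBD30, chr4:89780-89870, motif on the other strand, 88 to 78 bases before the start: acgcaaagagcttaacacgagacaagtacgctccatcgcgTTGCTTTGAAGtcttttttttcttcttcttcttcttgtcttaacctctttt
Both remaining matches lie in exons of neighbouring genes, so only the motif itself is given.
CESA4, chr5:17714370-17714380, plus strand, 20 to 10 bases before the start: CTTGAAAGCTA
FLA11, chr5:753851-753861, minus strand, 204 to 194 bases before the start: CTTCAAAGCAA

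Of the 5 genes with the motif XCP1 rose, CESA4, MC9 and LBD30 did not pass the threshold, and FLA11 had too few reads to be tested. Mean CPM was higher in the mutant for each of the 5, and the genotypes overlapped for CESA4 and MC9. The secondary wall NAC binding element, a longer and looser motif that VND and NST proteins are known to bind, was searched in the same windows on both strands. It stood before 26 of the 42 genes and 42.6% of all promoters. It overlaps the TERE match at XCP1, LBD30 and FLA11. The secondary wall MYB-responsive element (SMRE, 8 sequence variants) was also searched in these windows on both strands. The SMRE stood before 14 of the 42 genes and 29.4% of all promoters.

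Of the 42 genes, 29 had enough reads to be tested. TED7, NAC075, LAC4, LAC11, XCP1 and ACL5 rose in wox5-1 wox7-1 callus, 0 fell, and 23 did not pass the threshold, beside the 6.06% of all tested genes that rose. DESeq2 on the same counts called 9 of the genes, all higher in the mutant. Of the 23 that did not pass, all had a positive fold change, whereas 49.8% of all tested genes had one. Of these 23, 6 had an unadjusted p below 0.05 (edgeR). With the called genes included it was 12 of the 29, against 6247 of all 18716 tested genes. The median log2 fold change of the 29 tested genes was 1.13, against 0 over all tested genes, and 7 of the 29 averaged fewer than 10 reads in the wild type, so that some entered the test through their mutant reads. Mean CPM was higher in the mutant for all 40 genes with reads, against 50.9% of the 23491 genes with any read. Both mutant libraries lay above both wild type libraries for 29 of the 42 genes and below them for 0, while both mutant libraries lay above both wild type libraries for 28.4% of all genes with any read. Among tested genes alone the share was 31.5% above and 33% below. The list was chosen with earlier results of these data known, so these shares are a description and not a test. In bulk tissue, more cells of a type and more RNA per cell cannot be told apart. Every call in the whole table, these 6 included, was lost when either wild type library was left out, which leaves 1 wild type library. Those fits assume that the remaining wild type library varies like the mutant libraries.

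**Figure D1:**
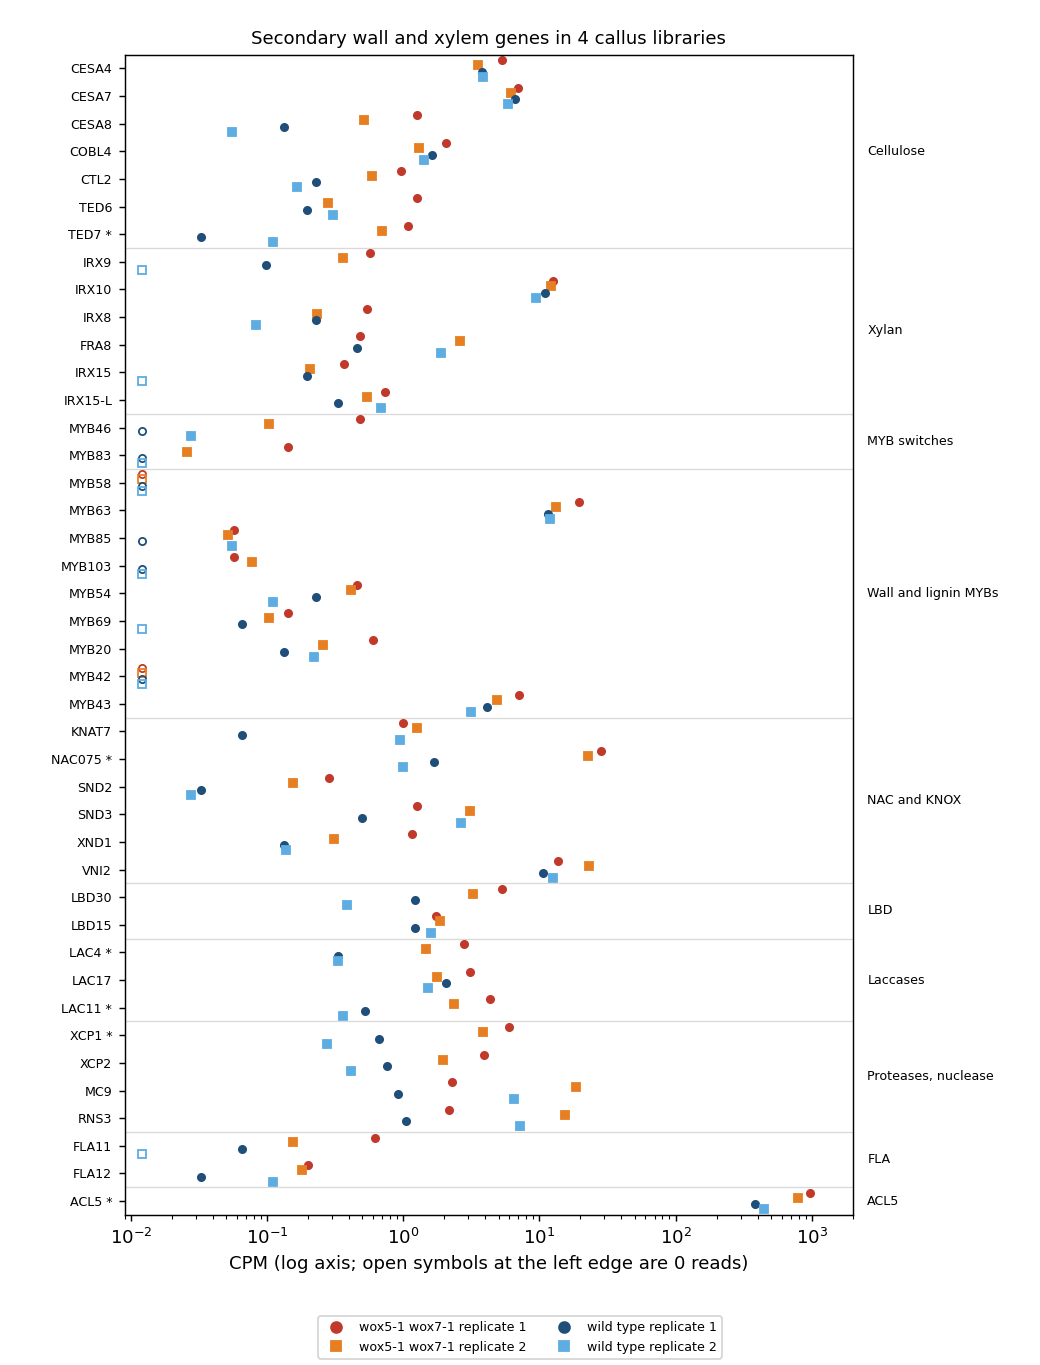
Level of each of the 42 genes in each library in CPM, drawn from the top in the order in which the roles are listed (wox5-1 wox7-1 in red and orange, wild type in dark and light blue, circles for replicate 1 and squares for replicate 2, a star for genes past the threshold). For NAC075 both mutant libraries (28.4 and 22.7 CPM) stand clear of both wild type libraries (1.68 and 0.996 CPM), while the 4 points of CESA7 lie together between 5.84 and 6.99 CPM.

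NAC075 (AT4G29230, chr4:14409772-14415481, plus strand of TAIR10.1), a NAC factor of the vascular network, showed the widest separation among the listed genes. It had 28.4 and 22.7 CPM in wox5-1 wox7-1 callus, against 1.68 and 0.996 CPM in the wild type (log2 fold change 4.26, SE 0.30, adjusted p = 0.0141, edgeR). The lower mutant library was thus far above the higher wild type library. Without wild type replicate 1 or wild type replicate 2 the log2 fold change was 4.68 and 3.92, and the adjusted p was 0.103 and 0.0955. NAC075 was also called with either mutant library left out and by limma-voom.

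The other 5 NAC and KNOX regulators did not pass. XND1, a NAC factor that holds back xylem differentiation, had 1.16 and 0.308 CPM in the mutant against 0.132 and 0.138 CPM in the wild type (log2 fold change 2.41, SE 0.84, adjusted p = 0.131). Most of that gap came from mutant replicate 1. VNI2, a repressor that binds VND7, had 13.6 and 23.1 CPM in the mutant against 10.6 and 12.5 CPM in the wild type (0.67, SE 0.28, adjusted p = 0.182). KNAT7, a homeobox regulator of the secondary wall, had 0.991 and 1.26 CPM in the mutant against 0.0658 and 0.94 CPM in the wild type (1.13, SE 1.05, adjusted p = 0.504). Here wild type replicate 1 alone stood low, with 2 reads. SND3, a NAC factor that acts on wall genes, overlapped between genotypes at 1.25 and 3.1 CPM in the mutant and 0.493 and 2.65 CPM in the wild type. SND2, a related NAC factor, was not tested and had 10 and 6 reads in the mutant against 1 and 1 in the wild type, 7.17 times as many per read sequenced (exact 95% bounds of 1.68 and 64.2).

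MYB46 and MYB83, the pair of MYB switches below the NAC factors, were close to the limit of detection. MYB46 had 17 and 4 reads in wox5-1 wox7-1 callus, against 0 and 1 reads in the wild type, 18.8 times as many per read sequenced (3.03 to 778). MYB83 had 5 and 1 reads in the mutant against 0 and 0 in the wild type. With the wild type set at 3 reads over both libraries, the ratio per read sequenced was 1.79. That ratio takes the mutant reads as exact and is not a lower bound. Neither MYB46 nor MYB83 had enough reads for the test, and for both genes most reads came from mutant replicate 1.

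Of the 9 other wall MYB factors, 3 were tested and none passed, while edgeR gave 0 an unadjusted p below 0.05. MYB63, an activator of lignin genes, was the highest of the 9 at 19.6 and 13.2 CPM in the mutant and 11.6 and 11.9 CPM in the wild type (log2 fold change 0.48, SE 0.21, adjusted p = 0.199). MYB43, also linked to lignin genes, had 7.08 and 4.85 CPM in the mutant against 4.14 and 3.15 CPM in the wild type (0.71, SE 0.29, adjusted p = 0.174). MYB54, a factor tied to secondary wall thickening, had 0.453 and 0.41 CPM in the mutant against 0.23 and 0.111 CPM in the wild type (1.34, SE 0.59, adjusted p = 0.197). For all 3 the mutant libraries lay above the wild type libraries, by less than the test requires. MYB85, another lignin-linked factor, had 2 and 2 reads in the mutant against 0 and 2 in the wild type, a ratio of 1.79 (0.257 to 19.8), so no difference was detectable at this depth. MYB103, known for its part in syringyl lignin, had 2 and 3 reads in the mutant against 0 and 0 in the wild type. By the same floor as for MYB83 its ratio was 1.49, which again is not a lower bound. MYB69 had 5 and 4 reads in the mutant against 2 and 0 in the wild type, a ratio of 4.03 (0.834 to 38.3). MYB20, a regulator of lignin and phenylalanine genes, had 21 and 10 reads in the mutant against 4 and 8 in the wild type. MYB42 and MYB58 had no read in any library, and all exon bases of MYB58 are also covered by a gene on the opposite strand.

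Both LBD factors were higher in both mutant libraries without passing. LBD30, a factor that takes part in vessel differentiation together with the VND factors, had 5.29 and 3.23 CPM in the mutant against 1.22 and 0.387 CPM in the wild type (log2 fold change 2.42, SE 0.64, adjusted p = 0.0792). Its TERE window is printed above. LBD15 had 1.73 and 1.85 CPM in the mutant against 1.22 and 1.6 CPM in the wild type (0.34, SE 0.32, adjusted p = 0.51).

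The 3 cellulose synthases of the secondary wall, CESA4, CESA7 and CESA8, work together as subunits of a single complex, and none of them passed the threshold. CESA8 (AT4G18780, chr4:10312624-10316886, minus strand) had 44 and 20 reads in wox5-1 wox7-1 callus, or 1.25 and 0.513 CPM, against 4 and 2 reads, or 0.132 and 0.0553 CPM, in the wild type. Its log2 fold change was 3.21 (SE 0.78, adjusted p = 0.0672), so it did not pass, and 16.79% of its exon bases are shared with genes on the other strand. CESA4 (AT5G44030) had 5.26 and 3.51 CPM in the mutant against 3.78 and 3.82 CPM in the wild type (0.21, SE 0.28, adjusted p = 0.646). CESA7 (AT5G17420) had 6.99 and 6.13 CPM in the mutant against 6.64 and 5.84 CPM in the wild type (0.07, SE 0.18, adjusted p = 0.814). The genotypes overlapped for CESA4 and CESA7 and not for CESA8. The difference between the fold changes of the 3 subunits was not tested.

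Per kilobase of exon the order of the 3 subunits was the same in all 4 libraries. CESA7 was at 2.05 and 1.8 RPKM (CPM per kilobase of exon) in the mutant and 1.95 and 1.71 RPKM in the wild type. CESA4 was at 1.4 and 0.932 RPKM in the mutant and 1 and 1.01 RPKM in the wild type. CESA8 was at 0.372 and 0.153 RPKM in the mutant and 0.0393 and 0.0165 RPKM in the wild type. CESA8 was therefore the lowest of the complex in both genotypes, and its level in the wild type lay far below those of its partners. No stretch of 50 exon bases of any listed gene was found elsewhere in the 5 nuclear chromosomes.

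**Figure D2:**
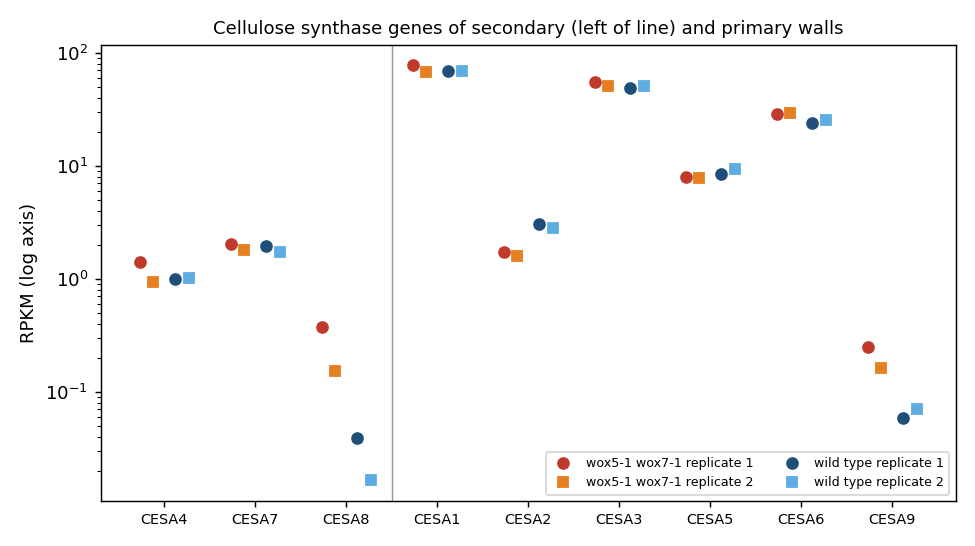
Levels of the secondary wall cellulose synthases CESA4, CESA7 and CESA8 (left of the line) and of 6 other cellulose synthases counted with the primary wall (right of it) per library in RPKM on a log axis, wox5-1 wox7-1 (red and orange) left of wild type (dark and light blue), circles for replicate 1 and squares for replicate 2. CESA8 lies lowest of its complex, at 0.372 and 0.153 RPKM in the mutant and 0.0393 and 0.0165 RPKM in the wild type, far under CESA1 at 77.6 and 68.3 RPKM in the mutant and 69.5 and 69.5 RPKM in the wild type.

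Among the other cellulose genes TED7 rose. TED6 and TED7 encode small membrane proteins that bind the secondary wall cellulose synthases. TED7 (AT5G48920, chr5:19835337-19836258, plus strand) had 38 and 27 reads in the mutant, or 1.08 and 0.693 CPM, against 1 and 4 reads, or 0.0329 and 0.111 CPM, in the wild type, and the difference passed narrowly (log2 fold change 3.52, SE 0.70, adjusted p = 0.0479). With so few wild type reads, TED7 entered the test through its mutant reads. With the stricter filter on low counts it was not tested. The call was lost without mutant replicate 1 (log2 fold change 3.16, adjusted p = 0.101), without mutant replicate 2 (3.80, adjusted p = 0.089) and by limma-voom (3.44, adjusted p = 0.0602). Without wild type replicate 1 and wild type replicate 2 its log2 fold change was 2.97 and 4.60, with adjusted p = 0.236 and 0.202. TED6 had 1.25 and 0.282 CPM in the mutant against 0.197 and 0.304 CPM in the wild type (1.58, SE 0.86, adjusted p = 0.274), high in mutant replicate 1 alone. CTL2, a chitinase-like protein of cellulose assembly, had 0.962 and 0.59 CPM in the mutant against 0.23 and 0.166 CPM in the wild type (1.96, SE 0.53, adjusted p = 0.0824). COBL4, needed for ordered cellulose deposition, overlapped at 2.04 and 1.31 CPM in the mutant and 1.61 and 1.41 CPM in the wild type.

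None of the 6 xylan genes passed. Of the 4 that edgeR tested, IRX9 alone had an unadjusted p below 0.05. IRX9, a glycosyltransferase-like protein of the xylan backbone, had 20 and 14 reads in the mutant against 3 and 0 reads in the wild type, a ratio of 10.2 (3.19 to 51.7), with an adjusted p of 0.129. IRX10, a xylosyltransferase of the backbone, was the highest of the group at 12.6 and 12.2 CPM in the mutant and 11 and 9.35 CPM in the wild type (log2 fold change 0.28, SE 0.14, adjusted p = 0.232). FRA8, an enzyme of the reducing end of xylan, overlapped at 0.481 and 2.59 CPM in the mutant and 0.46 and 1.88 CPM in the wild type. The values of FRA8 separate the replicate numbers more than the genotypes. IRX8, also of the reducing end, had 19 and 9 reads in the mutant against 7 and 3 in the wild type and was not tested. IRX15 had 13 and 8 reads in the mutant against 6 and 0 in the wild type, and its close relative IRX15-L, which overlapped between genotypes, stood at 0.736 and 0.539 CPM in the mutant and 0.329 and 0.691 CPM in the wild type (0.31, SE 0.54, adjusted p = 0.735). The IRX15 pair acts on xylan chain length and methylation.

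LAC4 and LAC11 rose, and LAC17 did not pass. These 3 laccases oxidise lignin monomers in the wall and are known to act together in lignification. LAC11 (AT5G03260, chr5:777021-779424, minus strand) had 4.36 and 2.36 CPM in wox5-1 wox7-1 callus, against 0.526 and 0.36 CPM in the wild type (log2 fold change 2.92, SE 0.48, adjusted p = 0.0353). LAC4 (AT2G38080, chr2:15934244-15937616, plus strand) had 2.77 and 1.46 CPM in the mutant against 0.329 and 0.332 CPM in the wild type (2.67, SE 0.49, adjusted p = 0.0421). For both, every mutant library was above every wild type library, and mutant replicate 1 was the higher mutant library. LAC17 overlapped at 3.08 and 1.77 CPM in the mutant and 2.07 and 1.52 CPM in the wild type (0.43, SE 0.40, adjusted p = 0.501), and 25.22% of its exon bases are shared with genes on the other strand. The calls of LAC11 and LAC4 were lost without mutant replicate 1 (log2 fold changes 2.41 and 2.13, adjusted p = 0.0561 and 0.0771) and by limma-voom (adjusted p = 0.0615 and 0.0715). Without wild type replicate 1 their adjusted p was 0.173 and 0.219, and without wild type replicate 2 it was 0.213 and 0.24. Per length, LAC17 was the highest laccase in the wild type, at 0.991 and 0.728 RPKM, whereas LAC11 was the highest in the mutant at 2.25 and 1.22 RPKM.

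The 4 genes of cell death fell into 2 patterns. XCP1 and XCP2 encode papain-like proteases that digest the contents of dying vessel cells. XCP1 (AT4G35350, chr4:16810482-16812077, plus strand) had 5.94 and 3.87 CPM in wox5-1 wox7-1 callus, against 0.658 and 0.277 CPM in the wild type, and rose (log2 fold change 3.40, SE 0.53, adjusted p = 0.0335). XCP2 had 3.93 and 1.95 CPM in the mutant against 0.756 and 0.415 CPM in the wild type (2.33, SE 0.55, adjusted p = 0.0637). Neither gene overlapped between the genotypes. The call of XCP1 was lost without mutant replicate 1 (log2 fold change 3.06, adjusted p = 0.0501), and without wild type replicate 1 and wild type replicate 2 the log2 fold change was 4.14 and 2.89, with adjusted p = 0.129 and 0.159.

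MC9, a metacaspase that acts after vessel death, and RNS3, a ribonuclease of senescing and dying tissue, followed the replicate number more than the genotype. MC9 had 2.29 and 18.5 CPM in the mutant against 0.921 and 6.5 CPM in the wild type (log2 fold change 1.48, SE 1.28, adjusted p = 0.471). RNS3 had 2.18 and 15.3 CPM in the mutant against 1.05 and 7.25 CPM in the wild type (1.07, SE 1.23, adjusted p = 0.592). Replicate 2 exceeded replicate 1 by 8.07-fold in the mutant and 7.06-fold in the wild type for MC9, and by 7.02-fold and 6.89-fold for RNS3. FRA8 and SND3 had the same order, at 5.38-fold and 4.09-fold and at 2.49-fold and 5.38-fold. Levels at least 2-fold higher in replicate 2 than in replicate 1 of both genotypes were seen in 527 tested genes, or 2.82%.

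The same order held for other genes of developmental cell death, which are also active in the dying root cap. Of the 6 on that list, BFN1, EXI1, DMP4, CEP1, SCPL48 and PASPA3, all were higher in replicate 2 of both genotypes and none passed between genotypes (smallest adjusted p = 0.287, edgeR). At an unadjusted p below 0.05 edgeR also gave 0 of the 6, and DESeq2 called 0. With the replicate number as a block in the edgeR fit, 4 of the 6 passed, all higher in the mutant, and so did MC9 and RNS3. That fit called 4750 of all 18716 tested genes, against 2223 without the block. The labels do not say that the replicate numbers mark a shared batch. BFN1, a nuclease, was higher by 8.06-fold in the mutant and 6.3-fold in the wild type. The exception in size was PASPA3, an aspartic protease, at 10.1-fold in the mutant and 1.1-fold in the wild type. Summed over the 6 genes the level was 33.8 and 136 CPM in the mutant and 18.9 and 62 CPM in the wild type. The root cap factor BRN1 stood at 0.509 and 11.6 CPM in the mutant and 0.23 and 5.95 CPM in the wild type. The part of root cap cells in the MC9 and RNS3 values was not tested.

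**Figure D3:**
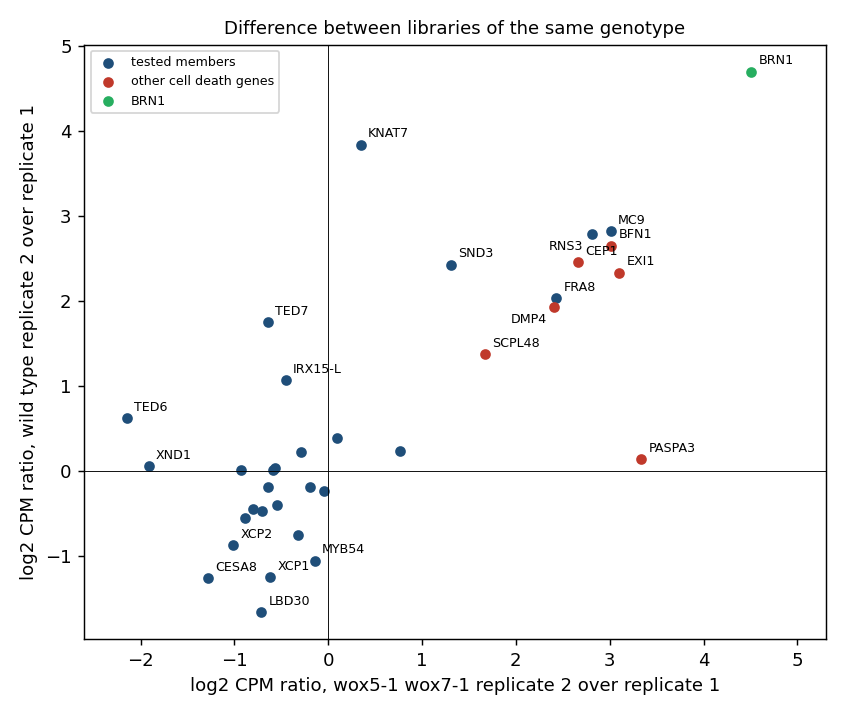
Difference between the 2 libraries of a genotype, as the log2 ratio of replicate 2 over replicate 1 in CPM, in wox5-1 wox7-1 (horizontal axis) and in the wild type (vertical axis), for tested genes of the list with reads in all libraries, other cell death genes and BRN1. MC9 (8.07-fold in the mutant, 7.06-fold in the wild type), RNS3, FRA8 and SND3 lie with the cell death genes in the upper right, apart from XCP1, XCP2 and LBD30 in the lower left.

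Most of the listed genes had the opposite order within the mutant. Of the 40 listed genes with reads, 32 were higher in mutant replicate 1 than in mutant replicate 2, including all 6 that rose, whereas 11241 of 23491 genes with any read were. In the wild type 19 were higher in replicate 1 and 19 in replicate 2. Left without mutant replicate 1, the test called NAC075, VNI2 and ACL5, and left without mutant replicate 2 it called all of the 6 except TED7. The summed level of the genes other than ACL5 was 141 and 150 CPM in the mutant and 62.9 and 75.2 CPM in the wild type. With MC9 and RNS3 also left out it was 136 and 116 CPM in the mutant and 60.9 and 61.4 CPM in the wild type, so these 2 genes set which mutant library had the higher sum.

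FLA11 and FLA12 encode fasciclin-like arabinogalactan proteins of secondary walls, and both were too low to test. FLA11 had 22 and 6 reads in the mutant against 2 and 0 reads in the wild type, a ratio of 12.5 (3.16 to 109). FLA12 had 7 and 7 reads in the mutant against 1 and 4 reads in the wild type. Both mutant libraries exceeded both wild type libraries for each gene.

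ACL5 was by far the most abundant of the listed genes and rose. It encodes thermospermine synthase, whose product is known to hold back vessel differentiation. ACL5 (AT5G19530, chr5:6588771-6591363, minus strand) had 968 and 790 CPM in wox5-1 wox7-1 callus, against 381 and 444 CPM in the wild type (log2 fold change 1.09, SE 0.15, adjusted p = 0.0259, edgeR). It was called with either mutant library left out, and without wild type replicate 1 and wild type replicate 2 its adjusted p was 0.171 and 0.155. Per length it stood at 571 and 466 RPKM in the mutant and 225 and 262 RPKM in the wild type, while the next gene in the mutant means, VNI2, was at 9.04 and 15.3 RPKM there. A neighbouring gene on the other strand shares 11.55% of the ACL5 exon bases. ACL5 alone made up most of the summed level of the list, which was 1110 and 940 CPM in the mutant and 444 and 519 CPM in the wild type.

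**Figure D4:**
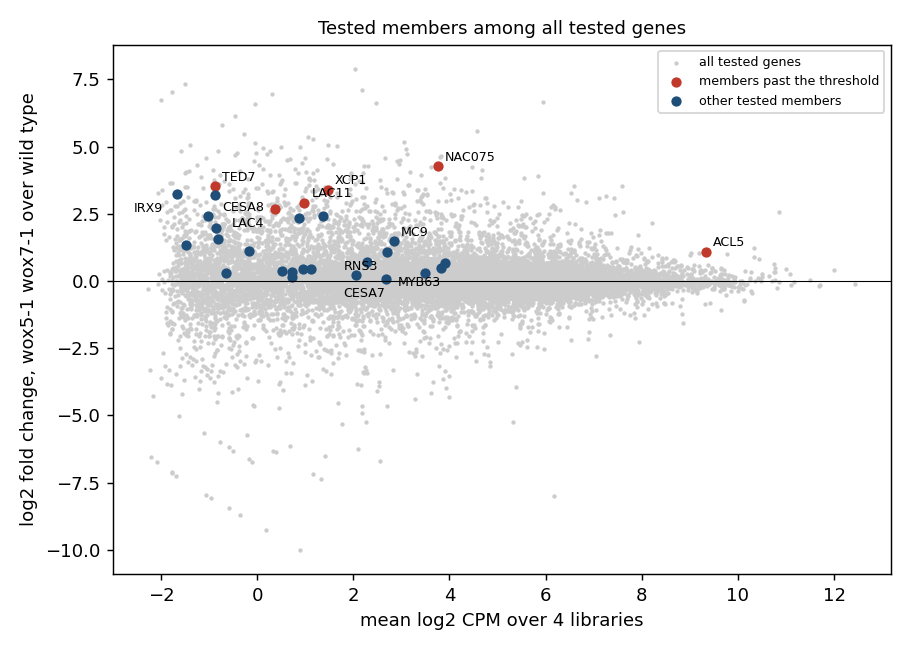
Log2 fold change of wox5-1 wox7-1 over wild type against mean log2 CPM over the 4 libraries for all 18716 tested genes (grey), with the listed genes past the threshold in red and the other tested ones in blue. All 29 listed genes lie above 0, from 0.07 for CESA7 to 4.26 for NAC075, and ACL5 stands alone at the right.

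The VND factors, which switch on the vessel programme, were higher in the mutant. Of the 10 vessel and fibre NAC genes, 6 were tested, of which VND1, VND3 and VND5 rose, 0 fell and 3 did not pass. VND5 had 345 and 245 reads in wox5-1 wox7-1 callus, against 1 and 1 reads in the wild type, a ratio of 264 (72.8 to 2190), with an adjusted p of 0.0118. VND3 had 15 and 6.59 CPM in the mutant against 0.132 and 0.083 CPM in the wild type (log2 fold change 6.63, SE 0.63, adjusted p = 0.0181). VND1 had 17.3 and 12.4 CPM in the mutant against 1.71 and 1.3 CPM in the wild type (3.30, SE 0.27, adjusted p = 0.0158). Both mutant libraries lay above both wild type libraries for each of the 7 VND genes. The same held for 28.4% of all genes with any read and 31.5% of all tested genes. VND3 (4 and 3 reads in the wild type), VND4, VND5 and VND7 entered the test through their mutant reads. VND7, the factor best known for driving protoxylem vessels, had 30 and 15 reads in the mutant against 1 and 0 in the wild type, a ratio of 40.3 (6.87 to 1630), and did not pass (adjusted p = 0.0554). VND6, which drives metaxylem vessels, had 15 and 11 reads in the mutant against 0 and 2 in the wild type and was not tested. Of the fibre factors, NST1 and NST2 had no read and NST3 had 1 read, in mutant replicate 2.

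**Figure D5:**
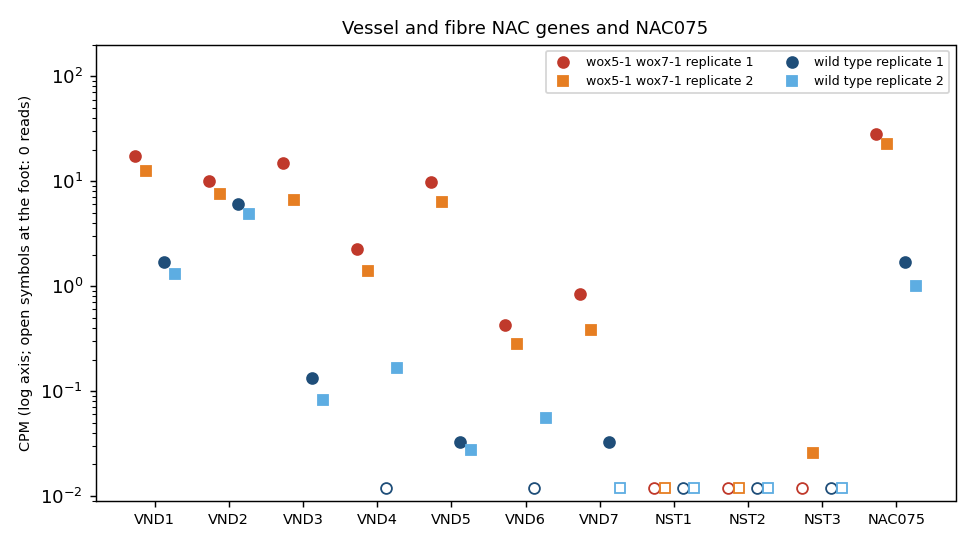
Levels of the 7 VND genes, the 3 NST genes and NAC075 per library in CPM on a log axis, wox5-1 wox7-1 (red and orange) left of wild type (dark and light blue), circles for replicate 1, squares for replicate 2, and open symbols at the foot for 0 reads. VND3 shows one of the widest gaps, at 15 and 6.59 CPM in the mutant and 0.132 and 0.083 CPM in the wild type, while the NST genes lie at or next to the foot in both genotypes.

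Among the 7 tested genes of xylem initiation, 4 rose, 0 fell and 3 did not pass. Without either one of the mutant libraries 3 of the 7 passed. AHP6, an inhibitor of cytokinin signalling that marks protoxylem, had 3.96 and 3.82 CPM in the mutant against 0.132 and 0.0553 CPM in the wild type (log2 fold change 5.36, SE 0.48, adjusted p = 0.0172). With 4 and 2 reads in the wild type, AHP6 entered the test through its mutant reads. ATHB8, a homeobox factor of the procambium, had 148 and 110 CPM in the mutant against 55.5 and 57.1 CPM in the wild type (1.19, SE 0.16, adjusted p = 0.0262). LBD18, which is active in lateral root formation and in vessel cells, had 165 and 166 CPM in the mutant against 106 and 102 CPM in the wild type (0.67, SE 0.07, adjusted p = 0.0195).

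Genes of lignin monomer synthesis were expressed in both genotypes, and 7 of the 15 tested rose, 0 fell and 8 did not pass. COMT1, a methyltransferase of the pathway, had 127 and 135 CPM in the mutant against 61.2 and 63.3 CPM in the wild type (log2 fold change 1.08, SE 0.07, adjusted p = 0.0135). The ligases 4CL1 and 4CL2 had log2 fold changes of 1.07 (SE 0.09, adjusted p = 0.016) and 0.94 (SE 0.10, adjusted p = 0.0205). Of 9 tested xylan genes outside the list, 1 rose, 1 fell and 7 did not pass. GXMT1, which methylates xylan side chains, had 12.6 and 16 CPM in the mutant against 2.56 and 1.6 CPM in the wild type (2.78, SE 0.30, adjusted p = 0.0205). F8H, the close relative of FRA8, had 1.9 and 2.95 CPM in the mutant against 14.7 and 15.9 CPM in the wild type, and fell (-2.65, SE 0.26, adjusted p = 0.0183). Of 3 MYB repressors of lignin genes MYB7 rose (1.68, SE 0.23, adjusted p = 0.0277), and 2 did not pass. The call of MYB7 was lost without mutant replicate 2.

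Markers of other cell types also differed between the genotypes, and their part in the results above was not tested. Of 4 root cap factors, 3 were tested: SMB rose (log2 fold change 3.82), FEZ fell (-1.41) and BRN1 did not pass. Without mutant replicate 2 only 1 of these 3 passed. The summed level of the 4 was 91.4 and 106 CPM in the mutant and 23.3 and 22.1 CPM in the wild type, and BRN2 had 0 reads in both wild type libraries. Of 7 phloem genes, 4 were tested and CALS7 fell (-0.70, a call lost with either mutant library left out), with summed levels of 16.3 and 15.2 CPM in the mutant and 24.3 and 20.9 CPM in the wild type. Of 5 tested cambium genes PXY rose (1.53, adjusted p = 0.0498, a call lost under both other library scalings), and the sum was 210 and 148 CPM in the mutant and 186 and 163 CPM in the wild type. PXY itself had 52.1 and 28.4 CPM in the mutant against 14.7 and 13.2 CPM in the wild type. All 5 cambium genes were higher in mutant replicate 1 than in mutant replicate 2, as were 32 of the 40 listed genes with reads. Of 8 endodermis genes, 5 were tested, MYB36 rose (3.23) and SCR fell (-0.73), with sums of 199 and 207 CPM in the mutant and 314 and 287 CPM in the wild type, and CASP1 had no read.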

How the data were processed

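For each of 4 libraries the authors deposited read counts per gene as whole numbers. TAIR10 and the tools STAR 2.7.2b, Trim Galore 0.5.0 and DESeq2 are listed in the submitters' processing notes. How reads were counted, and whether strand was used, is not stated in these sources, so overlapping genes on opposite strands cannot be told apart. Every deposited count was at least 10, and 33.1% to 35.3% of genes per library held exactly that value. For weakly expressed genes the variance between libraries was 0.604 (mutant) and 0.526 (wild type) times the Poisson variance as deposited, and 2.73 and 2.32 times after 10 was subtracted. A constant of 10 was therefore subtracted throughout, an inference from the values.

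The 42 genes, the other lists and the tests were chosen with earlier results of these data known. R 4.3.3 and edgeR 4.0.16 (TMM scaling, filterByExpr, glmQLFit and glmQLFTest, two-sided, no covariates) compared the mutant with the wild type over 18716 genes. The biological coefficient of variation was 0.217. The SE was taken as the absolute log2 fold change over the root of F. CPM uses TMM-scaled library sizes, and RPKM divides CPM by merged exon length in the TAIR10.1 RefSeq annotation, which also gave coordinates and sequences. Exact (Clopper-Pearson) 95% intervals were given for genes with at most 3 reads in a genotype. Such intervals cover counting error only. Floors set a wild type of 0 reads at 3 reads and take the mutant reads as exact, so they are not lower bounds. Genes named were all listed genes past the threshold, those with a log2 fold change of at least 1 and no overlap, the highest of each role, and up to 3 per other list by smallest p. IRX15-L, LBD15, LAC17 and other listed genes outside this rule, and of the other lists VND6, VND7, the NST genes and the cell type markers, were added after their values were seen. DESeq2 1.42.0 and limma-voom (limma 3.58.1), other scalings and filters, left-out libraries and a replicate block were alternatives. The scripts were tested on simulated data.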

Additional observations from a re-analysis of the deposited data

How the results depend on the processing

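The main test called 2223 genes, 6 of them listed, with a median log2 fold change of 1.13 over the tested listed genes and 19 calls among the related gene lists. DESeq2 called 3943 genes (9 listed, median 1.44), and limma-voom called 1698 genes (3 listed, median 1.17). The values as deposited gave 3921 genes (66.5% of them higher in the mutant, against 51.1% in the main test), 11 listed genes, a median of 0.64 and 32 calls in the related lists. That last fit used a moving-average dispersion trend. Without a filter on low counts the median was 1.41, and with the stricter filter (CPM of at least 1 in 2 libraries) it was 0.7, over different sets of tested genes. The replicate numbers are not said to mark a shared batch. With a replicate block 4750 genes were called, 13 of them listed, with a median of 1.33 and 32 calls in the related lists, and the difference between replicates 2 and 1 correlated at 0.56 between the genotypes over all tested genes. Leaving out 1 library gave 0 to 2493 genes, 0 to 5 listed genes, medians of 1.17 to 1.8 and 0 to 19 calls in the related lists. Fits with 1 library in a genotype assume that it varies like the other genotype. Both counts of 0 came without a wild type library, where 3428 and 3346 genes had an unadjusted p below 0.05. The fold changes of the listed genes past the threshold, and of those at 1 or more with no overlap, kept their sign under every setting in which they were tested. With the stricter filter CESA8, CTL2, IRX9, MYB54, KNAT7, XND1 and TED7 were not tested. With the values as deposited the log2 fold change was 1.69 for TED7, 1.98 for LAC4 and 2.84 for XCP1.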

Other observations

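Genes counted with the cellulose machinery of the primary wall were described beside the secondary wall genes. Of 10 tested, 1 rose, 1 fell and 8 did not pass, and 1 of the 10 passed without either one of the mutant libraries. KOR1, an endoglucanase, had 204 and 194 CPM in wox5-1 wox7-1 callus, against 139 and 136 CPM in the wild type (log2 fold change 0.53, SE 0.07, adjusted p = 0.0265, edgeR). CESA2, a primary wall cellulose synthase, had 7.25 and 6.72 CPM in the mutant against 12.9 and 11.9 CPM in the wild type (-0.83, SE 0.14, adjusted p = 0.0356). CESA6, another of these synthases, had 120 and 123 CPM in the mutant against 99.9 and 106 CPM in the wild type and did not pass (adjusted p = 0.0994). Of 4 genes that pattern the secondary wall, 3 were tested and none passed (smallest adjusted p = 0.173, and edgeR gave 0 an unadjusted p below 0.05). MAP70-5, a microtubule-associated protein, had 1.19 and 1.92 CPM in the mutant against 0.296 and 0.802 CPM in the wild type.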
